A study of Drosophila melanogaster with 3 samples.

Results

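The Polycomb group genes examined here are 10 genes of the fly that encode subunits of 3 repressive chromatin complexes: ph-p, ph-d, Pc, Psc, Su(z)2, Sce, E(z), esc, Su(z)12 and pho. They were taken by name from the annotation of the dm6 genome, all 10 matched, and they stand among 13945 protein-coding genes on the 6 chromosome arms used. The measurement was chromatin immunoprecipitation followed by sequencing (ChIP-seq) with an antibody against green fluorescent protein (GFP). The material was whole embryos of both sexes, 0 to 24 h old, from a transgenic line in which eyg, a Pax-family transcription factor with a homeodomain, carries GFP at its C terminus. There were 3 biological replicates of this single group and no second condition, so the data show where near these genes the tagged protein was called, not a change in their expression. Whole embryos pool every cell type of the first day of development, and a call cannot be assigned to any of them.

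Polycomb group proteins keep developmental genes, among them the Hox genes, silent through cell divisions. Polycomb repressive complex 1 (PRC1) binds methylated histone H3 and ubiquitylates histone H2A. Polycomb repressive complex 2 (PRC2) methylates histone H3, and the Pho repressive complex (PhoRC) brings a sequence-specific DNA-binding protein to Polycomb response elements. Several Polycomb genes are themselves known to be bound by Polycomb proteins in flies.

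In the data, 4 of the 10 genes (40.0%) had a summit of the authors' optimal peak list within 1 kb of a transcription start site (TSS), against 14.7% of all protein-coding genes. These were ph-p, ph-d, Psc and Su(z)12. The gene with by far the strongest call was ph-p, whose promoter peak had a pooled signal of 1142 and ranked 12 of 23721 pooled candidates. The peaks of ph-d, Su(z)12 and Psc had signals of 198.2, 160.1 and 123.9, and the lowest signal in the optimal list was 108.3. The other 6 genes had either a weaker candidate at the promoter or, for pho, no pooled candidate there. Signal is the value the authors' caller gave each region, on a scale that is not stated, and it is used here only to rank and describe regions within a list. With 10 genes chosen by name and 1 group of samples, no test was made of the difference between shares.

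The sequences under 3 of the peaks nearest to the tandem ph genes, and under the promoter candidate of Pc, are shown because they lie outside annotated UTRs and contain the summits on which the rest of the description turns. Each is read 5′ to 3′ on the minus strand, the coding strand of these genes, from the RefSeq copy of dm6, within 100 bp of the pooled summit. Capitals mark the bases from the first to the last of the 3 replicate summits. The first lies at chrX:2137235-2137435 (signal 1142), the second at chrX:2135299-2135499 in a ph-p intron (207.6), the third at chrX:2123884-2124084 upstream of ph-d (198.2), and the last at chr3L:21318021-21318219 upstream of Pc (79.68, a candidate outside the optimal list).
ph-p, strongest peak: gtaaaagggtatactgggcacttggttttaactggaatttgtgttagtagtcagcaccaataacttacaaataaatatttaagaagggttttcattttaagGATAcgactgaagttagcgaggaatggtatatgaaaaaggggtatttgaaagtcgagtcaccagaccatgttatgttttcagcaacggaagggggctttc
ph-p, intron: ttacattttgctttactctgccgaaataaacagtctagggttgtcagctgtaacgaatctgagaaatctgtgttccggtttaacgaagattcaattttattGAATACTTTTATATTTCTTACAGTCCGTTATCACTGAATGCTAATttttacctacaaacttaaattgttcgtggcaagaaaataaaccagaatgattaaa
ph-d: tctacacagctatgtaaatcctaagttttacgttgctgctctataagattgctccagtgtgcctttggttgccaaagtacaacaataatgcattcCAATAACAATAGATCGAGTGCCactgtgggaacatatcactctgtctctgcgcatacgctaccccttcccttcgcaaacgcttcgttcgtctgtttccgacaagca
Pc: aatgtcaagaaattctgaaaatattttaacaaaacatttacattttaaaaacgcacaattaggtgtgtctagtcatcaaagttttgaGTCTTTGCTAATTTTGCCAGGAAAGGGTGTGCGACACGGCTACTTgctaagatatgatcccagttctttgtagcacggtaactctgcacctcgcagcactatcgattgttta
The replicate summits fell within 4 bases in the first sequence, and over 45, 22 and 45 bases in the next 3.

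Of PRC1, the subunits examined were polyhomeotic (ph-p and ph-d), Polycomb (Pc, the chromodomain protein that binds methylated histone H3), Posterior sex combs (Psc) and its relative Su(z)2, and Sce, the RING-domain ubiquitin ligase of H2A. Of these 6 genes, 3 had an optimal summit within 1 kb of a TSS, as did 1 of the 3 PRC2 genes and not the PhoRC gene pho, beside 14.7% of all protein-coding genes. The complexes contribute unequal numbers of genes, and no comparison between them was made.

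The polyhomeotic locus holds a tandem pair, ph-d at X:2115727-2123286 and ph-p at X:2126210-2138371, both on the minus strand with 2923 bp between them. Their products share the same place in PRC1. The strongest ph-p peak, X:2137179-2137523, had a signal of 291.6 in replicate 1, 391.4 in replicate 2 and 472.2 in replicate 3. Its rank in those lists was 14, 11 and 11 (mean 12 ± 1.73, SD, n = 3), so its place was nearly the same in every replicate. The summit lay 480 bp upstream of the nearest of the 3 annotated ph-p start sites, inside an intron of a longer transcript. Over all protein-coding genes, 13 had a stronger pooled call at the promoter.

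The same promoter carried a second optimal peak, X:2137761-2138184, whose summit was 638 bp from the first and lay in the 5′ UTR of the longer transcript. Its pooled signal was 165.7, with 37.79, 44.09 and 88.17 in replicates 1, 2 and 3. The ranks were 1918, 2144 and 642, so it was higher in replicate 3 than in the other two. Another peak, X:2135187-2135610, lay in an intron 1223 bp downstream of the nearest start site. Its signal of 207.6 in the pool went with 56.62, 78.82 and 72.31 in the replicates, at ranks 765, 642 and 952. Within ph-p and the 10 kb around it, 5 optimal summits were found. The fourth of these belonged to ph-d and the fifth, X:2146068-2146491 with a signal of 114.1, lay in an intron of Pgd, a gene of the pentose phosphate pathway.

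The ph-d peak, X:2123772-2124195, lay 698 bp upstream of the nearest start site and outside any gene. Its signal was 65.12 in replicate 1, 53.82 in replicate 2 and 74.75 in replicate 3, at ranks 554, 1449 and 895. The strongest ph-p peak ranked above it in all 3 replicates and in the pool. Another 2 pooled candidates lay within 1 kb of a ph-d start site, with signals of 71.66 and 60.88, both below the optimal limit. The first of them was called in replicates 2 and 3 and the second in replicate 3.

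**Figure D1:**
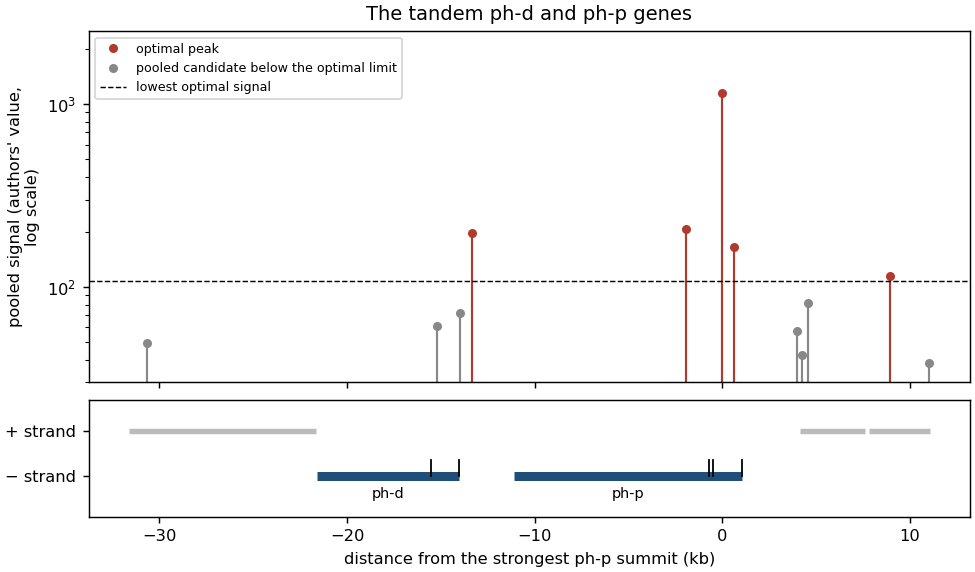
Pooled signal (log scale) of every pooled candidate against distance in kb from the strongest ph-p summit, with optimal peaks in red and other candidates in grey. Thick bars below are the ph genes with their start sites as ticks, thin bars are other protein-coding genes, and the dashed line is the lowest optimal signal of 108.3. The peak of 1142 stands over the 5′ end of ph-p, with the 198.2 peak of ph-d to the left.

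The ph genes arose by duplication and parts of them are alike in sequence, so each peak was aligned with the other gene. Within 250 bp of the strongest ph-p summit, a local alignment of 182 columns to the region upstream of ph-d was 90.7% identical. The aligned stretch ended 71 bp short of the ph-p summit, so the base at the summit has no counterpart in it. No pooled summit lay in the ph-d copy of the stretch, although the ph-d candidate of signal 71.66, X:2123158-2123581, overlapped it. The 2 copies, read 5′ to 3′ on the minus strand of dm6 at chrX:2137087-2137264 and chrX:2123521-2123696, are shown because they form the highest-scoring local alignment between the strong peak and the weaker locus. Capitals mark bases that differ or are missing in the other copy.
ph-p copy: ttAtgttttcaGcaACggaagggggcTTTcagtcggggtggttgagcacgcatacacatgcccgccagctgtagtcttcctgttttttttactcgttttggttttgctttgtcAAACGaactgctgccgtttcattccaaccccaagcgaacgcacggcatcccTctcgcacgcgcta
ph-d copy: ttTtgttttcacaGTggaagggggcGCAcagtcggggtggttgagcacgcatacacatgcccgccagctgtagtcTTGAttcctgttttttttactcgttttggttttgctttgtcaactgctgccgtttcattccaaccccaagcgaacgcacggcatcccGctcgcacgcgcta
The pair holds 13 capitals in the ph-p copy and 11 in the ph-d copy. The second ph-p peak aligned over 293 columns at 80.5% identity with X:2124246-2124525, upstream of ph-d, and its summit lay inside the stretch. The ph-d peak aligned over 366 columns at 70.2% identity with X:2137493-2137855 in ph-p, again with its summit inside. Neither of those counterparts held a pooled summit. The counterpart in ph-p did overlap the ends of the strongest ph-p peak, X:2137179-2137523, and of the second, X:2137761-2138184. The intron peak of ph-p had no alignment of 100 columns or more. Reads from sequence that occurs more than once in the genome may not be placed uniquely, so the share of 36-base words found once was counted. It was 95.5% in the strongest ph-p peak and 100% in the other optimal peaks of both genes. It was 86.4% in the ph-d candidate of signal 71.66.

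The peaks that ranked next to the strongest ph-p peak in the pooled list show its setting. Just above it, at rank 11, was a peak of signal 1146 with its summit 79 bp from a start site of Chro, which encodes a chromodomain protein of polytene interbands. Just below, at rank 13, was a peak of 1141 whose nearest coding start site, 2921 bp away, was that of hll. The Chro peak had 262.4, 441.7 and 445.3 in replicates 1, 2 and 3, and the hll peak 290.5, 442.9 and 424.7. Against the 291.6, 391.4 and 472.2 of ph-p, neither neighbour was above or below it in all 3 replicates, so the order of these peaks is not resolved.

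Psc and Su(z)2 are neighbours that face away from each other, with 15506 bp between them. Psc, at 2R:12965997-12980994 on the minus strand, had an optimal peak over its promoter, 2R:12980457-12980880, with the summit 11 bp upstream of the nearest start site and in the 5′ UTR of a longer transcript. The pooled signal was 123.9, with 46.88, 42.83 and 37.82 in replicates 1, 2 and 3. Ranks of 1182, 2269 and 3054 put it among the 2537 highest calls, the length of the optimal list, in replicates 1 and 2 but not in replicate 3. It was the weakest of the members' promoter sites.

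Stronger peaks flanked that promoter. An intron peak of Psc, 2R:12975396-12975819, lay 5050 bp downstream of the nearest start site. Its pooled signal was 210.1, with 40.71, 70.82 and 92.68 in replicates 1, 2 and 3. A peak between the genes, 2R:12985044-12985467, lay 4262 bp upstream of Psc and within 1 kb of a start site of lncRNA:CR44339. Its pooled signal was 216.7, with 51.7, 92.51 and 81.06 in the replicates. Both were among the 2537 highest calls of every replicate, at ranks from 446 to 1609. A peak of 327.9 at 2R:12958043-12958466 lay beyond the 3′ end of Psc, and its nearest coding start site, 4702 bp away, was that of CG13321. In all, Psc with 10 kb around it held 4 optimal summits.

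Su(z)2, at 2R:12996501-13007911 on the plus strand, had no optimal summit at its promoter. Its only optimal peak in the wider window, 2R:12991539-12991962, lay 4750 bp upstream and nearer to CG33798, 2146 bp away. The pooled signal was 116.4, close to the limit of 108.3, and the peak was among the 2537 highest calls of replicate 1 only. The promoter held 3 pooled candidates of 63.66, 50.07 and 44.68, the highest at rank 7392. With 13 pooled candidates, against 5.57 at the mean density of the pooled list over the 6 arms, the window of Su(z)2 had the most candidates of the 10 genes, most of them weak. The windows of Psc and Su(z)12 came close, with 12 each, against 6.2 and 4.47, as did that of ph-p, with 11 against 5.7. The windows of Psc and Su(z)2 overlap, so their counts are not independent.

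**Figure D2:**
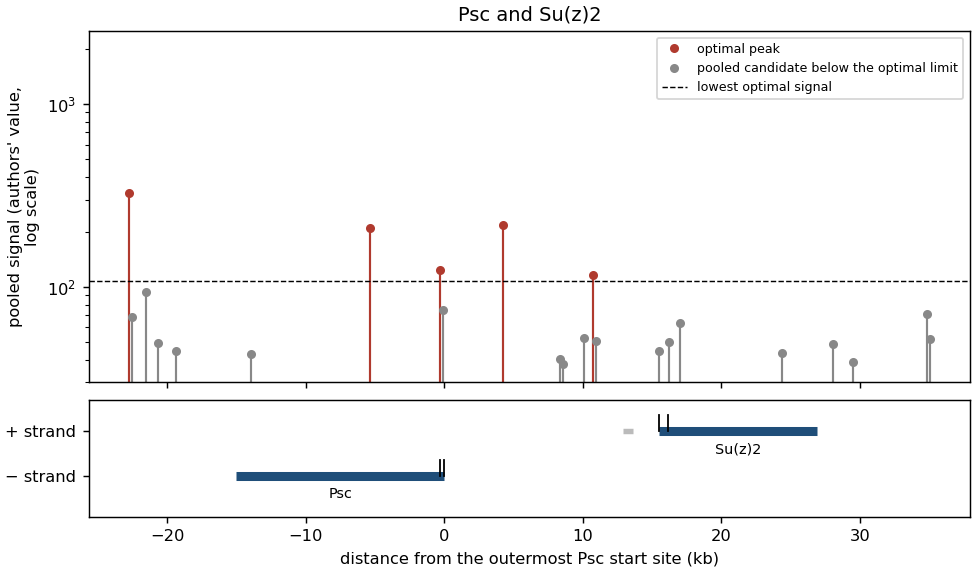
Pooled signal (log scale) of pooled candidates across Psc and Su(z)2 against distance in kb from the outermost Psc start site, with optimal peaks in red and other candidates in grey. Optimal peaks flank the Psc promoter on both sides at 210.1 and 216.7, and only candidates below the dashed limit of 108.3 lie over Su(z)2.

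Pc, at 3L:21306138-21318020, had a promoter candidate of signal 79.68, 99 bp upstream of its start site, with 17.37, 29.69 and 27.82 in replicates 1, 2 and 3. The ranks of 14389, 4928 and 5544 were outside the 2537 highest in every replicate. The same summit was within 1 kb of Rab26 and lncRNA:CR45674, so it cannot be given to Pc alone. The single optimal peak within 10 kb of Pc, 3L:21304457-21304700, lay beyond the 3′ end of Pc and within 1 kb of start sites of CG11309 and CG7632. It was strong, with a pooled signal of 651.6 at rank 56 and replicate signals of 187.9, 234.9 and 230.2. Sce, at 3R:27680431-27682029, had 1 weak candidate of 44.65 at rank 16339, called in replicates 1 and 3 but not in replicate 2.

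Of the PRC2 genes, Su(z)12 encodes a zinc-finger subunit needed for methylation, E(z) the methyltransferase and esc the WD-repeat protein that binds methylated histone H3. Su(z)12, at 3L:19918242-19923462, had an optimal peak at 3L:19923188-19923611 with its summit 62 bp inside the 5′ UTR. The pooled signal was 160.1, with 54.88, 41.4 and 69.73 in replicates 1, 2 and 3 at ranks 816, 2432 and 1011. It was among the 2537 highest calls in each replicate, in replicate 2 only just. The summit was also within 1 kb of a start site of Pfdn6, which encodes a prefoldin subunit. Another 2 optimal peaks lay within 10 kb. A peak of 125.0 stood at the start sites of RhoGDI and CG8004. The other, of 108.4 near lncRNA:CR45678, had rank 2531 and was among the last in the optimal list.

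E(z), at 3L:10634575-10638130, fell just outside the optimal list. Its candidate at 3L:10637881-10638304, 37 bp inside the 5′ UTR, had a pooled signal of 97.98 at rank 3103, against a limit of 108.3. In replicates 1, 2 and 3 the signal was 35.19, 30.9 and 33.82 at ranks 2276, 4508 and 3764, so only replicate 1 placed it among its 2537 highest. A start site of Cnep1r2 lay within 1 kb of the same summit. The best esc candidate had a signal of 71.6 at rank 5739, 51 bp upstream of the start site, and its ranks in replicates 1, 2 and 3 were 25809, 18162 and 4824. The place of this candidate in the lists differed far more between replicates than that of the strongest ph-p peak. Another esc candidate, of 49.84, ranked higher than it in replicates 1 and 2, at 7408 and 10418, and had no call in replicate 3.

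The gene pho encodes the DNA-binding subunit of PhoRC and lies on the small chromosome 4, at 4:1172469-1181628. It was the only member with no pooled candidate within 1 kb of its start site. Calls there were found in replicate 2 (signal 15.86, rank 20388) and replicate 3 (18.23, rank 14529), both in the lower part of their lists, and none in replicate 1. The 29.2 kb around pho held 1 pooled candidate. The density of candidates over all arms gives 5.17 for such a window, and that of chromosome 4 alone gives 4.48.

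**Figure D3:**
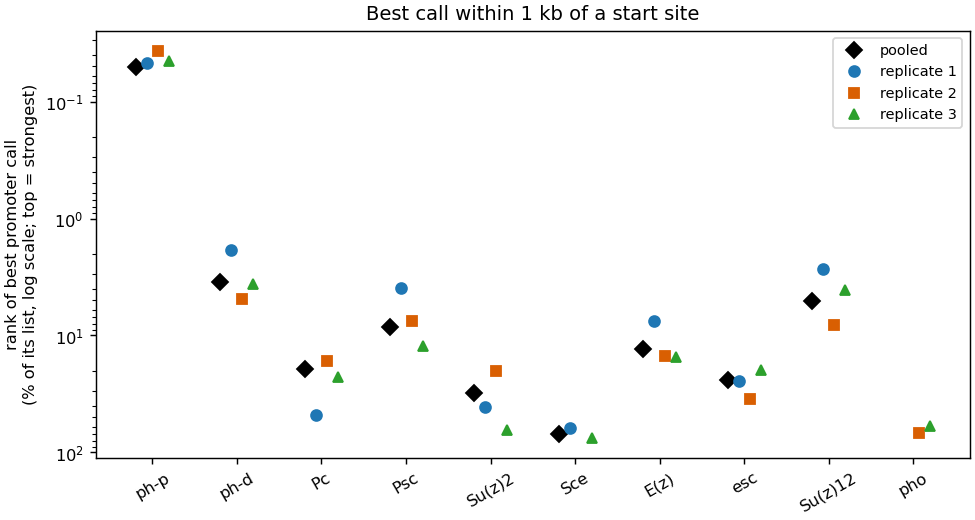
Rank of the best call within 1 kb of a start site, as a percentage of its list (log scale, strongest at the top), for each of the 10 genes in the pooled list and the 3 replicate lists. All 4 points of ph-p lie below 0.1% of their lists. Within each list those of ph-d, Psc and Su(z)12 come next, and pho has points in replicates 2 and 3 only.

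Across replicates, the set of genes with a promoter call among the 2537 highest was similar but not the same. Replicate 1 placed 5 of the 10 genes there, against 14.6% of all genes, and the fifth was E(z). In replicate 2 there were 4, against 14.4%. Replicate 3 had 3, against 15.0%, and lacked Psc. The genes ph-p, ph-d and Su(z)12 were in all 3 sets. Within each replicate ph-p was highest and ph-d second, while Su(z)12 was above Psc in replicates 1 and 3 and below it in replicate 2.

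The number of optimal summits in the gene body with 10 kb around can be set beside the number that the mean density of the optimal list over the 6 arms gives for a window of that length. It was 5 for ph-p against 0.609, 4 for Psc against 0.663 and 3 for Su(z)12 against 0.478. For ph-d, Pc and Su(z)2 it was 1 each, against 0.522, 0.604 and 0.595. For Sce, E(z), esc and pho it was 0, against 0.409, 0.446, 0.421 and 0.553. The density of chromosome 4 alone gives 0.238 for the window of pho. The windows of ph-p and ph-d share the ph-d peak, so these counts are not independent.

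Looser criteria covered more of the genes but also far more of the genome. An optimal summit in the gene body or the 10 kb around it was found for 6 of the 10 genes, against 46.9% of all genes, the additions being Pc and Su(z)2 through the peaks nearer to other genes. A pooled summit within 1 kb of a TSS was found for 9 of 10, against 56.4%. In the gene body with 10 kb around, it was found for 10 of 10, against 93.7%, a share too close to the background to say anything of these genes. Any call within 1 kb of a TSS was found for 9 of 10 genes in replicate 1 (all but pho), against 61.0% of all genes. It was found for 9 in replicate 2 (all but Sce), against 61.8%, and for all 10 in replicate 3, against 56.5%. The median of the best pooled promoter signal was 98.0 over the 9 genes with a candidate, against 70.0 over the 7861 protein-coding genes with one.

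The other genes of the Polycomb pathway were listed by role. A first list held 14 further subunits and partners of the complexes. Of these, 6 (42.9%) had an optimal summit within 1 kb of a TSS, against 14.7% of all protein-coding genes. They included Sfmbt, the partner of Pho in PhoRC, and jing and Jarid2, which encode accessory proteins of PRC2. The others were calypso (caly), a deubiquitylase of H2A, and Kdm2 and l(3)73Ah, which encode a demethylase and a RING-domain protein. The strongest promoter signals of the 6 genes were between 111.3 for Jarid2 and 180.5 for l(3)73Ah, below the 198.2 of ph-d. The Sfmbt summit was shared with CG5439 and CG43925, that of Jarid2 with Uch-L5, and that of calypso with CG42837, CG44242 and Lipt1. The 8 genes without a site were Scm, phol, escl, Caf1-55, Pcl, Asx, RYBP and sxc, and the best of these was phol with a promoter candidate of 104. Stronger optimal peaks lay within 10 kb of some genes without a site, at other genes' start sites. Caf1-55, a histone-binding subunit of PRC2, had a peak of 1147 in its window at rank 10, with its summit 124 bp from a start site of Art3. That was above the 1142 of ph-p in the pool. In replicates 1, 2 and 3 it had 312.5, 352.2 and 482.3, against 291.6, 391.4 and 472.2 for ph-p. It was lower in replicate 2, so the order of these peaks is not resolved either. The window of phol, a relative of pho, held a peak of 702.4 at rank 43, with its summit 102 bp from a start site of CG3552.

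A second list held 8 DNA-binding or associated proteins that are known to act at Polycomb response elements. Of these, 4 had a site: Trl, which encodes GAGA factor, psq, Dsp1 and lolal. The strongest promoter signal was 341.1 near Dsp1, a peak shared with CG9921. The next were 207.2 for Trl, a peak shared with CG42507, 195.2 for lolal and 128.5 for psq. A peak of 625.1 lay in an intron of Trl, 1532 bp from the nearest start site. The 4 without a site were z, grh, Spps and cg. Over both lists, 10 of 22 genes (45.5%) had a site, beside 40.0% of the 10 Polycomb group genes and 14.7% of all protein-coding genes. In none of these 22 genes was a pooled signal within 1 kb of a start site as high as the 1142 of ph-p, although that of the peak in the Caf1-55 window was.

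**Figure D4:**
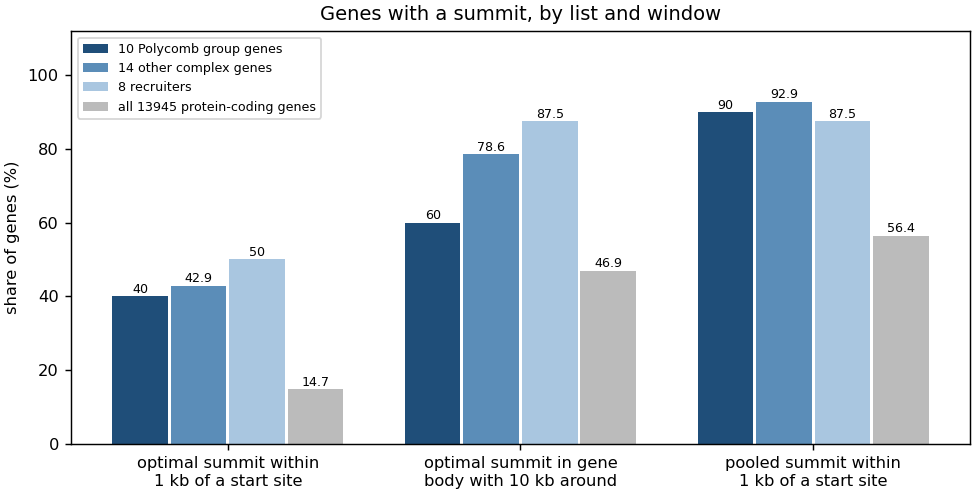
Share of genes (%) with a summit under 3 criteria, for the 10 Polycomb group genes, the 14 other complex genes, the 8 recruiters and all protein-coding genes, as bars from 0. The bars for an optimal summit within 1 kb stand at 40.0%, 42.9%, 50.0% and 14.7%.

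**Figure D5:**
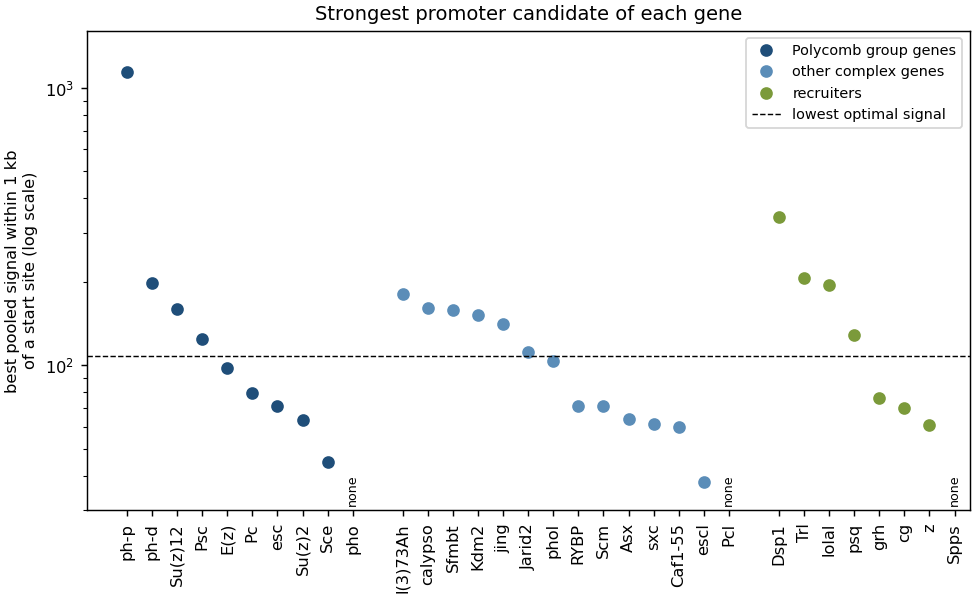
Best pooled signal within 1 kb of a start site (log scale) of each gene, ordered within its list, with the lowest optimal signal of 108.3 as a dashed line and "none" for genes with no pooled candidate. The point of ph-p at 1142 stands apart from all others, the highest of which is Dsp1 at 341.1.

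The windows printed earlier, and those under the other summits, were searched on both strands for 6 short words. TATCGATA (a Dref element) was found within 100 bp of 4.22% of the 2537 optimal summits, GGTCACACT (an M1BP element) of 1.93%, CAGCTGTT (an E box) of 4.61%, GAGAG (bound by GAGA factor) of 25.5%, GCCAT (the core bound by Pho) of 28.3% and TAATTA (a homeodomain core) of 13.7%. None of the 6 words was present in the windows of the 3 ph-p peaks, of the ph-d peak or of the Su(z)12 peak. That was also so for 39.8% of all optimal windows. The Psc promoter window held 4 matches of GAGAG, the Psc intron window 1 match each of CAGCTGTT and GCCAT, and the window upstream of Psc 1 match of TAATTA. The window of the stronger E(z) candidate held 1 match of GAGAG and the Pc window none of the words. Other candidates below the optimal limit also held GAGAG: 7 and 2 matches at Su(z)2 (signals 44.68 and 50.07), 6 at Psc (75) and 3 at ph-d (71.66). GCCAT had 2 matches at the weaker E(z) candidate (59.3) and 1 each at Su(z)2 (63.66) and Su(z)12 (44.83). The Su(z)2 window of 63.66 also held 2 matches of TAATTA. None of the words was in the windows of Sce, esc and the ph-d candidate of 60.88. The GC content of the strongest ph-p window was 37.8%, the same as the median of all optimal windows. A match is a description of letters in the window, and nothing was read from its absence.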

How the data were processed

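The files are region lists of ChIP-seq with an anti-GFP antibody from 3 biological replicates of embryos with GFP-tagged eyg. Per the labels and listings, the authors called regions in each replicate and in the pool, and made the optimal list with the irreproducible discovery rate, a comparison of ranks between replicates. Neither the aligner nor the peak caller is named (not given in the sources used here), and no control library was used here. The authors' deposited lists give a signal per region, whose scale is not stated, and a −log10 q-value. No read counts are in these lists, so depth is unknown and no interval was formed. Lists on dm6 were used, and those on dm3 were not used here.

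Summits were assigned with Ensembl release 115 (BDGP 6.54) gene models and coordinates are 1-based. A site is an optimal summit within 1 kb of a start site. The optimal list holds the 2537 pooled candidates of highest signal. A replicate signal is that of the call that contains the pooled summit, and replicate ranks follow signal. The word search and the sequences used the RefSeq copy of dm6. Alignments were local (Biopython 1.88), within 250 bp of each summit, against the other ph gene with up to 3000 bp upstream. Python 3.11.15 with pandas 2.3.3 and numpy 2.4.6 was used, and the assignment of summits to genes was tested on simulated data. Of the 32 listed genes, 31 matched by symbol and calypso by a RefSeq synonym.

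The genes, lists, words and alternatives were chosen with earlier results of these data known. The rule for named genes takes all 10 members, genes with a start site within 1 kb of a member's optimal summit, the nearest coding gene of other optimal peaks within 10 kb, genes of the other lists with a site, and the nearest genes of the peaks ranked next to the strongest member peak. Genes sharing a candidate outside the optimal list, genes sharing a summit with a gene of the other lists, and members of those lists without a site were named after their values were seen. So were the Trl intron peak and the peaks in the windows of Caf1-55 and phol. Replicates are described by their values and ranks, with no test between groups.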

Additional observations from a re-analysis of the deposited data

How the results depend on the processing

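The count of 4 genes with an optimal summit within 1 kb was between 3 and 4 under every alternative tried. ph-d was lost at 500 bp (3 genes, against 12.5% of all genes). Psc was lost in the upper part of the optimal list by signal (3 genes, against 8.17%). Psc was also lost without replicate 1 or without replicate 2. Leaving out each replicate gave 3 to 4 genes, against 10.1% to 10.9% of all genes, in place of 14.7%. The authors made the optimal list from all 3 replicates, and it was not called anew. These counts therefore cannot show which genes a list from the remaining replicates would hold. The count of 6 genes with an optimal summit in the body or the 10 kb around became 5 when each replicate was left out. The share of all genes was then 35.8% to 37.8%, in place of 46.9%. With a margin of 5 kb the count was 6, against 34.2% of all genes. It was 5 with 2 kb, against 23.9%, and 5 with the upper part of the optimal list by signal, against 30.3%. With a −log10 q of at least 2, the count of genes with a pooled promoter summit was 4 in place of 9, and 16.2% of all genes had one in place of 56.4%. The mean rank of the strongest ph-p peak was 11 to 12.5 without each replicate in turn. Ranked by −log10 q it was 550.7 ± 69.1 (SD, n = 3), because 1235, 959 and 1107 regions tied at the highest value in replicates 1, 2 and 3. Of 21 alternatives, 19 gave a count within 1.5 times the main one or a rank within 1 SD. No paired analysis was possible because all 3 samples form a single group.

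The signal scale is not stated and the depth is unknown, so a gene without a call cannot be said to lack binding, and signals were not compared between lists. Without an analysed control library, signal that does not depend on the tagged protein was not tested.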
